A study of Mus musculus with 8 samples.

Results

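O9-1 cells are cranial neural crest cells of the mouse that were immortalized as a line. The values below describe them without added ligand, in the cultures that received vehicle only. The members were the 4 arrays labelled as vehicle, of 8 arrays in the series. The other 4 came from cultures given SHH-N peptide and enter no value below. All cultures shared the line, a 24 h attachment period, a change to DMEM with 1% FBS and RNA collection 48 h later. The vehicle cultures thus had been in low serum, without added ligand, throughout that time. The labels call the cultures biological replicates, and all of them came from 1 line, so that the spread given below is a spread between cultures and not between animals or lines.

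Cranial neural crest cells leave the dorsal neural tube, migrate into the face and form its mesenchyme, from which cartilage, bone, connective tissue, pericytes and vascular smooth muscle arise. Epithelia of the face send hedgehog ligand to these cells. The ligand binds Patched, which releases Smoothened from inhibition, and the signal then passes through the primary cilium to the Gli transcription factors. The cells without added ligand are therefore described here by their crest and facial identity factors and by the machinery with which they could receive a signal. The matrix they make and their growth state are described as well.

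Each Mouse Gene 2.0 ST array gave a log2 signal for 41345 transcript clusters, the probe groups of the design. Of these, 23521 carried exactly 1 gene symbol, 1820 carried several and 16004 carried none. With the brightest cluster standing for a gene, 22180 genes were described by their mean log2 signal and its SD over the 4 cultures (n = 4 for every value given as mean ± SD). The percentile of a gene is the share of all clusters with a mean signal no higher than its own. Probes differ in how brightly they bind, so a percentile ranks signals and not the number of RNA molecules. In a bulk culture, fewer cells with a transcript and less of it per cell cannot be told apart. For the 1082 genes with more than 1 cluster, the brightest and the dimmest cluster lay a median of 1.68 log2 units apart.

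No detection value accompanied the signals, and olfactory receptors, which are used in the nose and not known from this mesenchyme, served as a measure of background. Their 1108 clusters had a median signal of 3.58 and ranged from 1.91 to 7.84. The 95th percentile of these clusters, 5.66, is called the lower background line, and their 99th percentile, 6.34, the upper background line. Of all genes, 12877 (58.1%) lay above the lower line and 10382 (46.8%) above the upper one. These shares are the background against which the counts of gene lists below are to be read. The lists held 1007 different symbols, of which 74 were not analysed here, 30 of them because they share a cluster with other symbols. The signals of all genes fell into a low hump, with most genes per step of 0.25 between 5.25 and 5.5 (1236 genes), and a broad high hump around 8. Between the humps the fewest genes, 602, lay between 6.5 and 6.75, just beyond the upper line. A gene between the lines is therefore called neither present nor absent.

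**Figure D1:**
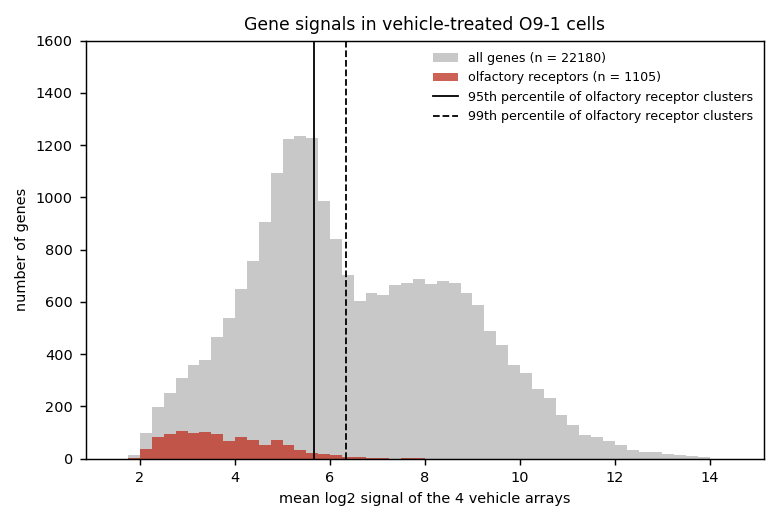
Number of genes by mean log2 signal of the 4 vehicle arrays, in steps of 0.25, with the olfactory receptors in red and the 2 background lines drawn as vertical lines. The lower line at 5.66 falls on the right flank of the low hump and the upper line at 6.34 lies near the dip between the humps.

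The 4 cultures were alike. The median signal of the arrays was between 5.73 and 5.76, and Pearson's correlation across all clusters was between 0.9893 and 0.991 for the 6 pairs of arrays, given as a description. The median absolute difference between a pair of arrays was between 0.129 and 0.146 log2 units, and no pair agreed exactly in more than 44 clusters, so that no array was a copy of another. Over the genes above the lower line the median SD was 0.0746 log2 units, and 67.8% of these genes had an SD under 0.1. The spread depended on the signal. Its median fell from 0.155 in genes at or below the lower line to 0.123 between the lines, 0.0905 from the upper line to a signal of 8, 0.0582 from 8 to 10, 0.045 from 10 to 12 and 0.037 above 12.

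The brightest signals belonged to the translation apparatus, the mitochondrial genome, the cytoskeleton and the matrix. *B2m*, the light chain of MHC class I, led all genes with 13.97, 13.99, 13.98 and 13.97 in the 4 cultures. *Lgals1*, encoding the lectin galectin-1, gave 13.82, 13.82, 13.87 and 13.80. *Vim*, the intermediate filament of mesenchymal cells, gave 13.62, 13.63, 13.62 and 13.63. The SD of these 3 genes was 0.0084, 0.030 and 0.0068 log2 units, against a median of 0.037 for genes with a signal above 12. Among the 30 genes with the highest mean were 8 mitochondrially encoded genes, from *ND4* (13.92 ± 0.028), a subunit of respiratory complex I, to *ND2* (13.25 ± 0.043). A further 8 were ribosomal proteins, from *Rpl41* (13.86 ± 0.020) to *Rpl29* (13.25 ± 0.034), and *Fau* (13.35 ± 0.032), whose product carries a ribosomal protein at its end, stood beside them. *Eef1a1* (13.56 ± 0.018), the elongation factor that brings aminoacyl-tRNA to the ribosome, was of the same height. The matrix was represented by *Bgn* (13.70 ± 0.011), the proteoglycan biglycan, and *Fn1* (13.38 ± 0.035), fibronectin. *Acta2* (13.48 ± 0.030), the smooth muscle actin, and *Crabp1* (13.33 ± 0.011), a retinoic acid binding protein of cranial crest and its mesenchyme, completed the protein-coding genes of known tissue pattern. The remaining protein-coding genes of the 30 were *Gabarap* (13.39 ± 0.019), an autophagy protein of the Atg8 family, and *Atp5md* (13.38 ± 0.021), a small subunit of the mitochondrial ATP synthase. The non-coding RNAs *Rn7sk* (13.76 ± 0.016), which holds the transcription elongation factor P-TEFb inactive, and *Malat1* (13.34 ± 0.041), a nuclear RNA, were also among them. Of the 413 clusters that made up the brightest 1%, with means of 12.07 or more, 172 carried 1 symbol, 49 several symbols and 192 none, so that these named genes cover only part of the brightest signals.

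The promoters of some of these genes carry well-known elements, which are shown because the genes are among the 30 with the highest signals. The sequences were taken from the RefSeq windows of the mouse build GRCm38.p6, which run from 250 bases before to 50 bases after an annotated gene start, and are written on the strand of the gene, with no position 0. For *Acta2*, on the minus strand of chromosome 19 (chr19:34255354-34255473), positions -100 to 20 around the start are given, with CCCTATATGG, CCTTGTTTGG and TATATAA in capitals. The first pair are the CArG elements to which serum response factor binds in this promoter. They were found on the strand of the gene as CC and GG that enclose 6 bases, at least 5 of them A or T, a motif that was present on either strand in 9.56% of all windows. For *Vim*, on the plus strand of chromosome 2 (chr2:13574251-13574320), positions -60 to 10 are given, with TATAAA in capitals.
*Acta2*: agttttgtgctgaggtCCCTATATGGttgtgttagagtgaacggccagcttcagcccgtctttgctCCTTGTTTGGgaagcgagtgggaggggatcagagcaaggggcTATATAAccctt
*Vim*: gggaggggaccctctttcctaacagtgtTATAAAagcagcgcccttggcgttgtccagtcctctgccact
On either strand, CCCTATATGG was found in 7 and CCTTGTTTGG in 7 of the 14336 promoter windows (0.049% each). TATATAA was found in 3.37% and TATAAA in 13.7% of them. In *Acta2* the RefSeq start lies before the TATATAA, which begins at position 9, whereas the TATAAA of *Vim* begins at position -32.

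Ribosomal protein transcripts are known to begin with a pyrimidine tract, through which growth signals control their translation. Positions -15 to 15 around the RefSeq start are shown for 4 of the 8 ribosomal proteins among the 30 and for *Fau*, with the unbroken run of C and T that overlaps the start in capitals.
*Rps6* (chr4:86857353-86857382, minus strand): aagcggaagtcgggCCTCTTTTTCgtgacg
*Rpl35* (chr2:39005117-39005146, minus strand): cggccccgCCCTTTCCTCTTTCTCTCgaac
*Rpl28* (chr7:4792950-4792979, plus strand): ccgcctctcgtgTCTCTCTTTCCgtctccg
*Rpl15* (chr14:18270972-18271001, minus strand): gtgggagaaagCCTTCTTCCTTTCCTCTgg
*Fau* (chr19:6057932-6057961, plus strand): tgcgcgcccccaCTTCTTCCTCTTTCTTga
The runs were 10 to 18 bases long. A run of at least 8 pyrimidines that overlapped positions -5 to 10 was found in 17 of the 39 ribosomal protein genes with exactly 1 window (43.6%) and in 11.2% of all 14336 windows.

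All 58 ribosomal protein genes lay above the lower line, and 55 of them above the upper one, with a median of 11.12. The 3 that did not pass the upper line were *Rps16* (6.01 ± 0.097), *Rplp2* (5.79 ± 0.13) and *Rpl11* (5.77 ± 0.083). For *Rps16* a further cluster, which carries several symbols and stood for no gene here, had a mean of 12.28, and for *Rplp2* such a cluster had a mean of 12.05. A dim cluster is therefore not read here as a silent gene. The 10 mitochondrially encoded genes had a median of 13.63, and the dimmest of them was *ND6* (9.86 ± 0.13), the gene that is encoded on the opposite strand to the other subunits of complex I.

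Across all genes with exactly 1 promoter window, the CpG content of the promoter followed the signal. The 14336 genes were cut into deciles by mean signal. In the lowest decile the mean ratio of observed to expected CpG was 0.161, in the fifth it was 0.479, and in the highest decile it was 0.806. The ratio rose at each step, but by only 0.013 over the 3 highest deciles. TATAAA showed the reverse order over the lower deciles. It was present on either strand in 34.7% of the windows of the lowest decile, 12.5% in the fifth and 5.37% in the ninth, and in 7.12% in the highest. CCAAT, the element of the factor NF-Y, was present in between 34.8% and 43% of the windows of each decile, with no steady order. Olfactory receptors, whose windows had TATAAA in 40.9% and a CpG ratio of 0.123, made up 503 of the 1434 genes of the lowest decile. Without them that decile had TATAAA in 28.8% of its windows and a CpG ratio of 0.185.

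**Figure D2:**
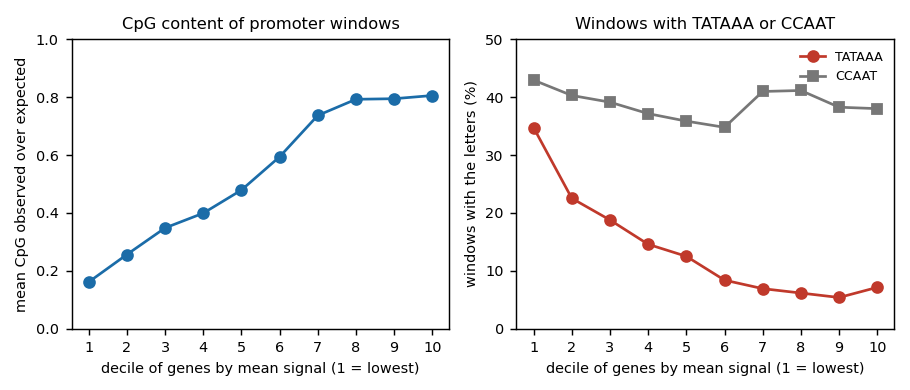
Mean CpG observed over expected (left) and the percentage of promoter windows with TATAAA or CCAAT on either strand (right), by decile of genes ordered by mean signal. The CpG ratio goes from 0.161 in the lowest to 0.806 in the highest decile and TATAAA from 34.7% to 7.12%.

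Neural crest factors formed a graded series. Of the 36 measured genes of the neural crest list, 27 lay above the lower line (75%, against 58.1% of all genes). Above the upper line lay 20 of them (against 46.8% of all genes), and the median was 6.90. *Tfap2a*, encoding the AP-2α factor that specifies crest, gave 10.96, 10.98, 10.86 and 10.93. *Sox9*, which directs the chondrogenic crest, gave 10.81, 10.83, 10.91 and 10.83. *Snai2*, a repressor of epithelial genes during crest emigration, gave 10.75, 10.85, 10.88 and 10.76. All 3 were far above both lines in every culture and lay at or above percentile 96.7. Further bright members were the cadherins *Cdh11* (12.49 ± 0.045) and *Cdh2* (11.05 ± 0.016), the orphan nuclear receptors *Nr2f2* (11.38 ± 0.049) and *Nr2f1* (9.28 ± 0.066), *Lmo4* (9.89 ± 0.032) and *Id2* (9.79 ± 0.040). *Twist1*, the helix-loop-helix factor that holds crest cells in a mesenchymal state, was at 9.64 ± 0.10, and *Ednrb*, an endothelin receptor of migrating crest, at 8.96 ± 0.15. *Zeb1* (7.90 ± 0.025), *Ets1* (7.23 ± 0.12), *Snai1* (7.06 ± 0.11) and *Foxd3* (6.74 ± 0.062), a factor of premigratory crest, were lower but past the upper line.

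Several genes known from migrating crest and the neural plate border were at or near background, unlike *Ednrb* and *Foxd3*. *Sox10*, the defining factor of migrating crest, gave 5.74, 5.69, 5.98 and 5.63. *Erbb3*, a neuregulin receptor of crest cells, gave 5.90, 5.50, 5.35 and 5.57. *Ngfr*, encoding the p75 receptor by which crest cells are often sorted, gave 6.33, 6.09, 5.91 and 6.09. No culture was above the upper line for any of the 3. *Pax3* (5.28 ± 0.15), *Zic1* (5.27 ± 0.046) and *Zic2* (5.37 ± 0.074), factors of the neural plate border, were below the lower line. *Tfap2b* (4.21 ± 0.089) and *Tfap2c* (4.16 ± 0.28), the relatives of *Tfap2a*, had the lowest signals of the list. Among the 9 genes below the lower line were also *Mycn* (5.27 ± 0.13), *Cdh6* (5.28 ± 0.12) and *Itga4* (5.22 ± 0.086), whereas *Pax7* (5.84 ± 0.13) and *Sox8* (6.09 ± 0.14) lay between the lines. Set against the label of cranial neural crest cells, *Tfap2a*, *Ednrb* and *Foxd3* were among the 20 genes above the upper line, and *Sox10* and these border genes were not.

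Most facial mesenchyme factors were above background. Of 41 measured genes 34 lay above the lower line (82.9%, against 58.1% of all genes). Above the upper line lay 26 (against 46.8%), and the median was 7.14. *Prrx1*, a paired-type homeobox gene of skeletogenic mesenchyme, gave 12.45, 12.45, 12.39 and 12.48. *Osr1*, a zinc finger gene of the palate and limb mesenchyme, gave 12.04, 12.17, 12.30 and 12.21. *Meis2*, a TALE homeobox gene required in crest for the face, gave 11.52, 11.51, 11.54 and 11.48. All were within the highest 2% of clusters. Next in order were *Tbx15* (10.73 ± 0.027) and *Foxp1* (10.72 ± 0.037). The forkhead genes *Foxf1* (9.99 ± 0.077), *Foxf2* (9.28 ± 0.081), *Foxc2* (9.06 ± 0.046) and *Foxc1* (8.91 ± 0.036), of which the Foxf pair are known hedgehog targets in the face, lay together between 8.9 and 10. *Foxd1* (5.50 ± 0.15) was below the lower line and *Foxd2* (6.64 ± 0.072) just above the upper one.

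Genes that mark particular positions in the face had unequal signals. The proximal first-arch gene *Dlx2* (9.09 ± 0.011) was high, while *Dlx5* (6.37 ± 0.11) was at the upper line and *Dlx3* (6.22 ± 0.090), *Dlx6* (5.29 ± 0.29) and *Dlx4* (5.22 ± 0.13) were below it. *Hand2* (5.30 ± 0.16), a marker of the ventral arch, was below the lower line. *Lhx8* (8.92 ± 0.097), *Barx1* (8.81 ± 0.051) and *Pax9* (9.19 ± 0.053), genes of the oral jaw mesenchyme, were all at 8.8 or more, and *Lhx6* followed with 7.70 ± 0.082. Genes of the frontonasal mesenchyme were low, with *Alx4* at 6.15 ± 0.21 and *Alx1* at 4.98 ± 0.23. *Pitx1* (5.92 ± 0.13), *Six2* (6.11 ± 0.21) and *Msx2* (5.76 ± 0.16) lay between the lines.

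**Figure D3:**
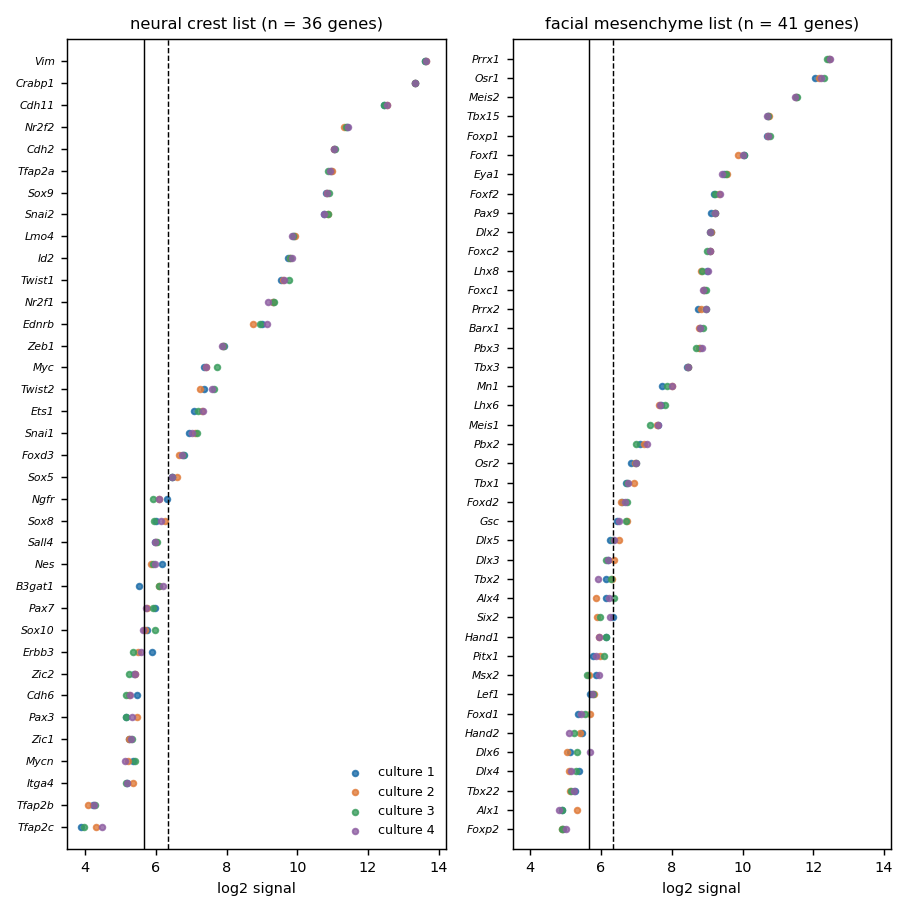
Log2 signal of each culture (coloured points) for the measured genes of the neural crest list (left) and the facial mesenchyme list (right), ordered by mean, with the lower (solid) and upper (dashed) background lines. *Sox10* lies at the lower line and *Prrx1* at the top of its list, and the points of the 4 cultures nearly coincide for the bright genes.

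Hox genes, which are silent in the crest of the first arch and the frontonasal region, were near background. Only 6 of 36 lay above the lower line, against 58.1% of all genes, and the median was 5.12. The highest was *Hoxd10*, with 6.59, 6.39, 6.01 and 6.37. Its cultures straddled the upper line, with cultures 1, 2 and 4 above it, and its mean of 6.34 was within 0.01 of that line. The others above the lower line were *Hoxa6* (6.23 ± 0.096), *Hoxb5* (6.15 ± 0.084), *Hoxa13* (6.06 ± 0.13), *Hoxc13* (5.74 ± 0.22) and *Hoxd12* (5.67 ± 0.18). *Hoxa2*, whose presence separates second-arch from first-arch crest, was at 5.12 ± 0.19. The anterior genes *Hoxb1* (5.38 ± 0.18), *Hoxa3* (5.29 ± 0.12) and *Hoxb2* (4.35 ± 0.13) were also below the lower line.

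Against 46.8% of all genes, other axial factors passed the upper line in 5 of 26 cases. These were *Emx2* (7.80 ± 0.071), *Irx5* (7.46 ± 0.053), *Nkx2-5* (7.33 ± 0.047), *En1* (6.82 ± 0.090) and *Otx1* (6.49 ± 0.031). *Otx2*, the forebrain and midbrain factor, was below the lower line at 4.97 ± 0.036, as was *Pax6* at 5.41 ± 0.16.

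Most genes of the hedgehog list had signals above background without added ligand. Of its 36 measured genes 29 lay above the lower line (80.6%, against 58.1% of all genes). Above the upper line lay 28 (against 46.8%), and the median was 8.06. Of its 11 genes of ligand release and reception 8 lay above the lower line and 7 above the upper one. Of its 22 transducers 20 lay above both lines. *Smo*, encoding the transducer Smoothened, gave 10.75, 10.59, 10.60 and 10.67. *Ptch1*, encoding the receptor that holds Smoothened inactive and itself a target of the pathway, gave 8.36, 8.53, 8.50 and 8.42. The co-receptor *Gas1* gave 9.70, 9.58, 9.82 and 9.71. All 3 were above the upper line by 2 log2 units or more in every culture. The other co-receptors, *Cdon* (9.23 ± 0.053) and *Boc* (8.54 ± 0.057), were similarly above it. *Gli3* (9.92 ± 0.066) and *Gli2* (8.93 ± 0.027), the factors that are processed at the cilium, and their inhibitor *Sufu* (9.44 ± 0.026) were all at or above percentile 87.2.

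*Gli1* and *Hhip*, which are used as read-outs of an active pathway, were near background. *Gli1*, which is transcribed in response to the signal, gave 5.05, 5.54, 5.30 and 5.44. *Hhip*, a target that binds and removes ligand, gave 5.55, 5.89, 5.91 and 5.70. *Shh* itself gave 5.25, 5.04, 5.62 and 5.31. For *Gli1* and *Shh* the mean was below the lower line, and for *Hhip* it was between the lines. Of the other ligands *Dhh* (5.66 ± 0.15) was at the lower line, and *Ihh* (7.70 ± 0.11) was above the upper one in all 4 cultures. *Disp1* (9.00 ± 0.026), which releases ligand from cells that make it, was high. *Lrp2* (4.81 ± 0.036), *Scube1* (5.04 ± 0.080) and *Scube2* (4.95 ± 0.11) were below the lower line, while *Scube3* was at 7.29 ± 0.19.

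Genes of the primary cilium, through which the signal passes, were uniformly above background. All 32 measured cilium genes lay above the upper line, against 46.8% of all genes, with a median of 8.22. The highest were the intraflagellar transport gene *Ift20* (11.37 ± 0.063), whose product also acts at the Golgi, *Ift22* (9.54 ± 0.041) and *Tulp3* (9.30 ± 0.10), which carries receptors into the cilium. *Ift88*, whose loss abolishes cilia in mouse, gave 8.22, 8.17, 8.17 and 8.17, and the motor subunit *Kif3a* was at 8.71 ± 0.073. The lowest were *Bbs4* (6.44 ± 0.051), a subunit of the BBSome, and *Cep290* (6.50 ± 0.12), a protein of the transition zone. Of the transducers that act at or beyond the cilium, *Gpr161* (7.92 ± 0.080), *Evc* (8.17 ± 0.066), *Evc2* (7.98 ± 0.063) and *Kif7* (6.78 ± 0.11) were all above the upper line, and the kinase genes *Gsk3b* (11.10 ± 0.043), *Csnk1a1* (10.19 ± 0.022) and *Prkacb* (10.12 ± 0.024), which phosphorylate Gli proteins, were above 10.

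Among receptor tyrosine kinases 32 of 52 lay above the lower and 25 above the upper line, a share close to that of all genes, but with a small set of very bright members. *Pdgfra*, the PDGF receptor of facial mesenchyme, gave 11.67, 11.68, 11.61 and 11.77. *Pdgfrb*, the receptor of pericytes and smooth muscle precursors, gave 11.58, 11.65, 11.62 and 11.64. *Ryk* (11.15 ± 0.039), a Wnt co-receptor, the collagen receptor *Ddr2* (11.12 ± 0.039), *Fgfr1* (10.95 ± 0.082), *Axl* (10.64 ± 0.029), *Igf1r* (10.55 ± 0.017), *Met* (10.48 ± 0.056) and *Fgfr2* (10.03 ± 0.065) were also above 10. *Egfr* (6.21 ± 0.29) lay between the lines with a wide spread. *Fgfr3* (5.20 ± 0.16), *Fgfr4* (5.51 ± 0.018), the melanoblast receptor *Kit* (5.62 ± 0.23) and the neurotrophin receptors *Ntrk2* (4.65 ± 0.37) and *Ntrk3* (4.60 ± 0.089) were below the lower line. Of the PDGF ligands *Pdgfc* (9.12 ± 0.063) and *Pdgfa* (8.40 ± 0.083) were above the upper line, and *Pdgfb* (6.02 ± 0.033) and *Pdgfd* (5.88 ± 0.20) between the lines.

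Receptors of the TGF-β family were above the upper line in 8 of 14 cases, against 46.8% of all genes. They were led by *Bmpr2* (11.51 ± 0.042), *Bmpr1a* (10.32 ± 0.043) and *Tgfbr3* (9.59 ± 0.060). *Tgfbr2* (8.77 ± 0.092) and *Tgfbr1* (7.71 ± 0.039), the signalling pair of TGF-β, followed. Receptors of restricted use, *Bmpr1b* (5.23 ± 0.27) of cartilage and *Acvrl1* (5.56 ± 0.18) of endothelium, were below the lower line. Of 32 ligands of the family 11 were above the upper line, against 46.8% of all genes. *Tgfb3*, which is required for palate fusion, gave 11.49, 11.41, 11.42 and 11.51. *Bmp4*, a ligand of the facial prominences, gave 9.55, 9.48, 9.50 and 9.46. *Bmp2* (5.54 ± 0.13), *Bmp5* (4.59 ± 0.28) and *Bmp6* (5.33 ± 0.12) were below the lower line, and *Bmp7* (5.97 ± 0.18) lay between the lines. *Grem1*, an antagonist of BMP ligands and one of the genes for which the study designed RT-PCR primers, was at 10.48 ± 0.065.

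Wnt receptors were mostly above background, with 10 of 12 above the upper line (against 46.8% of all genes) and a median of 8.79. The co-receptors *Lrp6* (11.52 ± 0.020) and *Lrp5* (10.22 ± 0.028) and the Frizzled genes *Fzd2* (10.21 ± 0.049), *Fzd8* (9.39 ± 0.070), *Fzd6* (9.05 ± 0.061) and *Fzd7* (8.87 ± 0.060) led. *Fzd10* (4.18 ± 0.16) was below the lower line. Of 19 ligands 6 were above the upper line, against 46.8% of all genes. *Wnt5a*, the ligand of noncanonical signalling in facial mesenchyme, was the highest with 9.24, 9.15, 9.24 and 9.17. The crest and neural tube ligands *Wnt1* (5.68 ± 0.13), *Wnt3a* (5.44 ± 0.15) and *Wnt3* (5.18 ± 0.19) were at or below the lower line. In the Notch system *Notch2* (10.91 ± 0.019), *Jag1* (9.05 ± 0.11) and *Notch1* (8.48 ± 0.13) were high, and the ligands *Dll3* (5.16 ± 0.18) and *Dll4* (5.57 ± 0.19) were below the lower line.

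Few FGF ligands passed the upper line. Of 22 genes 5 lay above the upper line, against 46.8% of all genes. *Fgf7*, a ligand that mesenchyme sends to epithelium, gave 11.22, 11.16, 11.20 and 11.16. *Fgf18* (8.56 ± 0.093) and *Fgf10* (7.45 ± 0.12), the latter of the same subfamily as *Fgf7*, followed, and *Fgf22* (7.29 ± 0.19) and *Fgf17* (6.58 ± 0.089) were the others. *Fgf8*, the ligand of facial ectoderm, was between the lines at 5.79 ± 0.050. Other bright growth factors and cytokines were *Cxcl12* (11.45 ± 0.065), which guides migrating crest, *Csf1* (10.93 ± 0.049), *Vegfb* (10.54 ± 0.019), *Ptn* (10.52 ± 0.065), *Angpt1* (8.68 ± 0.031), *Igf1* (8.64 ± 0.044), *Vegfa* (8.64 ± 0.059) and *Igf2* (8.39 ± 0.097). *Ccl2* gave 9.75, 9.13, 9.26 and 9.21, and among the bright members of the list it had the widest spread. *Il6* was the dimmest of the 35 genes of this list at 2.97 ± 0.21. In retinoic acid handling the binding proteins *Crabp1* and *Crabp2* (9.25 ± 0.061), the retinol dehydrogenase *Rdh10* (9.52 ± 0.048), the degrading enzyme *Cyp26b1* (8.55 ± 0.14) and the receptors *Rxra* (9.88 ± 0.086), *Rara* (8.70 ± 0.068) and *Rarg* (7.76 ± 0.065) were above the upper line. *Aldh1a2* (5.02 ± 0.17), the main synthesizing enzyme of the embryo, and *Rarb* (5.28 ± 0.19) were below the lower line.

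Matrix genes had some of the highest signals. Of 37 matrix protein genes 33 lay above the upper line (against 46.8% of all genes), with a median of 10.26 (percentile 94.9). Besides *Bgn* and *Fn1*, *Postn*, encoding periostin, gave 13.05, 13.09, 13.05 and 13.15. The proteases *Mmp2* (12.35 ± 0.025) and *Mmp14* (12.29 ± 0.046), which activates it, the inhibitor *Timp2* (12.55 ± 0.0049), *Thbs1* (12.25 ± 0.061), the crosslinking enzyme *Lox* (12.11 ± 0.013) and *Sparc* (11.75 ± 0.071) were above 11.7. The microfibril gene *Fbn2* (11.34 ± 0.038) and tenascin C, *Tnc* (10.80 ± 0.054), were also high, and elastin, *Eln* (6.56 ± 0.036), only just passed the upper line. The 4 below the lower line were *Lama2* (5.60 ± 0.088), *Lum* (5.58 ± 0.13), the cartilage proteoglycan *Acan* (5.46 ± 0.079) and *Lama1* (5.30 ± 0.11). Of the 44 collagen chains 35 lay above the lower line (79.55%, against 58.1% of all genes) and 23 above the upper one (against 46.8%). *Col1a1*, the main chain of collagen I, gave 12.76, 12.77, 12.76 and 12.77. *Col12a1* (13.07 ± 0.035), *Col1a2* (11.90 ± 0.024), *Col8a1* (11.36 ± 0.028) and *Col6a1* (10.60 ± 0.068) accompanied it above 10. *Col3a1* was at 9.38 ± 0.073, the basement membrane chains *Col4a2* (8.67 ± 0.078) and *Col4a1* (8.38 ± 0.067) were lower, and *Col14a1* (4.99 ± 0.11) and *Col15a1* (5.26 ± 0.093) were below the lower line.

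Integrin subunits were led by *Itga8*, with 11.90, 11.92, 11.85 and 11.94, whose partner *Itgb1* was at 11.33 ± 0.052. The fibronectin and vitronectin receptor subunits *Itgb5* (10.82 ± 0.045), *Itgav* (10.66 ± 0.050) and *Itga5* (9.25 ± 0.059) were above 9. Leukocyte subunits such as *Itgb2* (5.04 ± 0.27) and *Itgal* (5.45 ± 0.061) and the epithelial subunit *Itgb6* (4.18 ± 0.13) were below the lower line. Of 20 cadherins 6 lay above the upper line, against 46.8% of all genes. Among the 6 were the mesenchymal *Cdh11* and *Cdh2*, *Cdh13* (9.45 ± 0.076) and *Cdh3* (9.13 ± 0.036). The epithelial *Cdh1*, with 6.10, 6.42, 6.25 and 6.64, straddled the upper line, and the endothelial *Cdh5* (5.40 ± 0.051) was below the lower one.

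Smooth muscle genes stood out among the lineage markers. Of 15 genes 13 lay above the lower line (86.7%, against 58.1% of all genes). Above the upper line lay 11 (against 46.8%), and the median was 8.96. *Acta2* gave 13.45, 13.48, 13.46 and 13.52. *Myl9*, the regulatory light chain of smooth muscle myosin, gave 11.93, 12.06, 12.05 and 12.11. *Tagln*, encoding the actin-binding protein transgelin, gave 10.12, 10.15, 10.26 and 10.28. The lowest percentile of the 3 was that of *Tagln*, 94.6. *Cald1* (10.75 ± 0.032), *Tpm1* (10.60 ± 0.032), *Smtn* (10.01 ± 0.026) and *Mylk* (9.92 ± 0.037), genes of the contractile apparatus that fibroblasts also use, were close behind. Among genes known from differentiated smooth muscle, *Cnn1*, *Myh11* and *Myocd* had lower signals. *Cnn1*, calponin, was above the upper line at 6.78 ± 0.078. The heavy chain *Myh11* was between the lines at 6.30 ± 0.054, and the coactivator *Myocd* below the lower line at 5.47 ± 0.094.

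Pericyte markers were divided in the same manner. *Pdgfrb*, *Cd248* (9.15 ± 0.030), *Mcam* (8.01 ± 0.085), *Anpep* (7.98 ± 0.095), *Cspg4* (7.73 ± 0.021), the proteoglycan NG2, and *Notch3* (7.39 ± 0.038) were above the upper line, and *Abcc9* (5.92 ± 0.22), *Kcnj8* (5.54 ± 0.10), *Rgs5* (4.65 ± 0.064) and *Higd1b* (4.28 ± 0.15) were not. Of the genes of the study's own perivascular list 183 of 245 lay above the lower line and 151 above the upper one. The share above the lower line was 74.7%, against 58.1% of all genes. The brightest after *Lgals1*, *Bgn* and *Acta2* were *Ogn* (13.11 ± 0.076), the proteoglycan osteoglycin, and *Gpx8* (12.71 ± 0.059). The study's orofacial cleft list had 258 of 312 measured genes above the lower line (82.7%, against 58.1% of all genes). Above the upper line lay 217 of them (against 46.8%), and the median was 7.87.

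Osteoblast markers were mostly low, and 5 of 14 chondrocyte markers passed the upper line, against 46.8% of all genes. Of the 8 osteoblast genes only *Col1a1* was above the upper line. *Alpl*, alkaline phosphatase, straddled that line with 6.39, 6.32, 6.30 and 6.23, and *Sp7* (5.44 ± 0.36), the osteoblast factor osterix, *Bglap* (5.61 ± 0.15) and *Ibsp* (4.95 ± 0.22) were below the lower line. Of the chondrocyte genes *Sox9*, *Ihh*, *Col10a1* (7.38 ± 0.10), *Col2a1* (6.72 ± 0.11) and *Sox5* (6.49 ± 0.074) were above the upper line, and *Acan*, *Sox6* (4.82 ± 0.24), *Matn1* (5.0 ± 0.094) and *Comp* (5.36 ± 0.20) below the lower one. *Pparg* (6.72 ± 0.12) and *Lpl* (6.40 ± 0.17) were the only adipocyte genes above the upper line, with *Adipoq* (4.66 ± 0.17) and *Fabp4* (4.34 ± 0.41) below the lower one. In the melanocyte list *Mitf*, the factor of the lineage, gave 8.01, 8.13, 8.13 and 8.26, and *Mlana* gave 8.07, 8.09, 8.13 and 8.20. The pigment enzymes *Tyr* (4.10 ± 0.080), *Tyrp1* (4.95 ± 0.074) and *Dct* (5.53 ± 0.11) were below the lower line.

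Few markers of other cell types passed the upper line, which 46.8% of all genes did. Of 14 epithelial genes 2 passed the upper line, *Krt8* (6.42 ± 0.13) and *Cdh1*, both by less than 0.1 log2 units, while *Epcam* (4.46 ± 0.13), *Krt14* (5.33 ± 0.15) and *Trp63* (5.35 ± 0.11) were below the lower line. Of 14 endothelial genes 2 passed, *Erg* (8.39 ± 0.12) and *Egfl7* (6.84 ± 0.12), while *Kdr* (5.44 ± 0.16), *Cdh5*, *Tie1* (5.21 ± 0.16) and *Emcn* (3.41 ± 0.12) were below the lower line. The only leukocyte gene above the upper line was *Cd68* (6.69 ± 0.050), and *Ptprc*, the pan-leukocyte CD45, was at 4.04 ± 0.14. Of the pluripotency and germ cell genes only *Klf4* (7.80 ± 0.0055), which fibroblasts also use, was above it, and *Nanog* (5.02 ± 0.25) and *Pou5f1* (5.63 ± 0.11) were below the lower line. Among 8 glial genes only *Foxd3* passed the upper line, and among 11 neuronal genes *Gap43* (6.92 ± 0.12), *Tubb3* (6.75 ± 0.15) and *Rbfox3* (6.57 ± 0.091) did. Above the lower line lay 50% of the skeletal muscle, 50% of the cardiac and 44.4% of the hepatocyte genes, against 58.1% of all genes. For the erythroid genes the share was 20%. The upper line was passed by 2 of 12 skeletal muscle genes, *Myog* (6.65 ± 0.12) and *Tnnt3* (6.52 ± 0.086), by 1 of 10 cardiac genes, *Nkx2-5*, by 1 of 9 hepatocyte genes, *Apoa1* (6.44 ± 0.13), and by none of 5 erythroid genes.

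Of the 13 measured genes of fibroblasts and mesenchymal stem cells 10 lay above the lower line (76.9%, against 58.1% of all genes) and 9 above the upper one. Besides *Vim*, *Pdgfra*, *Itgb1* and *Dcn* (9.42 ± 0.090), the proteoglycan decorin, these included *S100a4* (10.10 ± 0.040), a calcium-binding protein. Of the surface proteins used to define mesenchymal stem cells, *Cd44* was at 6.88 ± 0.037, *Thy1* at 6.36 ± 0.18 and *Vcam1* at 6.34 ± 0.18. The cultures of *Thy1* and *Vcam1* straddled the upper line, with *Vcam1* at 6.27, 6.16, 6.33 and 6.59. *Eng* (5.83 ± 0.097) lay between the lines and *Nt5e* (5.26 ± 0.18) below them. The fibroblast protease *Fap* was below the lower line as well (4.35 ± 0.29).

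**Figure D4:**
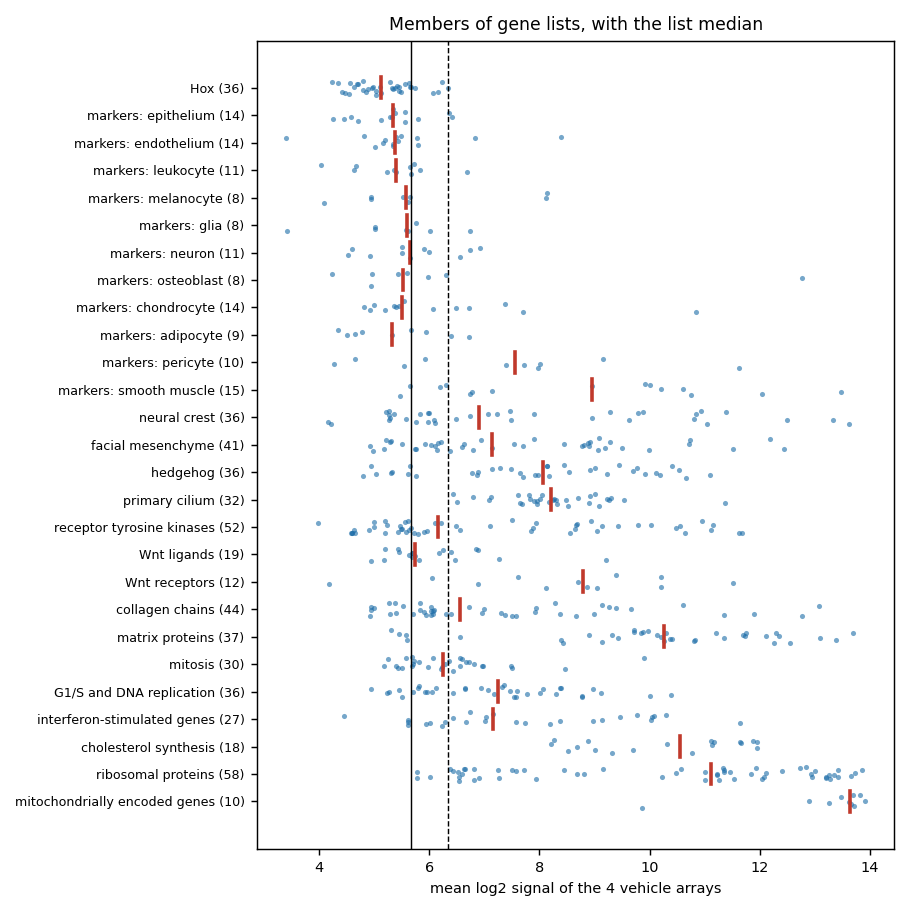
Mean log2 signal of the 4 vehicle arrays for each measured member (blue points) of 27 gene lists, with the list median (red bar), the number of members in brackets and the lower (solid) and upper (dashed) background lines. The medians of Hox and of most lineage marker lists lie at or left of the lower line, while those of smooth muscle, matrix proteins and cholesterol synthesis lie at 8.96 or more.

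Cell cycle lists differed in their share above background. Of 18 cyclins, kinases and inhibitors 16 passed the upper line, against 46.8% of all genes. *Cdk4*, the kinase of G1, gave 12.12, 12.11, 12.18 and 12.14. *Ccnd1*, cyclin D1, gave 9.78, 9.72, 9.82 and 9.74. *Cdkn1b*, the inhibitor p27, gave 9.42, 9.53, 9.39 and 9.47. These 3 were above 9 in every culture. Other inhibitors were high as well, with *Cdkn1a* (p21) at 8.71 ± 0.18, *Cdkn1c* (p57) at 8.63 ± 0.051 and *Cdkn2c* at 8.30 ± 0.10. The *Cdkn2a* locus, which encodes p16 and Arf and is often lost in immortalized cells, lay at the upper line with 6.33, 6.32, 6.12 and 6.36, and *Tert*, the telomerase subunit, was below the lower line at 5.60 ± 0.20. Of 36 genes of G1/S transition and DNA replication 31 passed the lower line (86.1%, against 58.1% of all genes). The upper line was passed by 24 of them (against 46.8%), led by *Pcna* (10.39 ± 0.049), a clamp of DNA polymerase. Of 30 mitotic genes 24 lay above the lower line (80%, against 58.1% of all genes) and 14 above the upper one (against 46.8%). The mitotic share above the upper line was thus close to that of all genes, and the list median, 6.26, lay between the lines. *Cdk1* was at 8.47 ± 0.066 and *Smc4*, a condensin subunit, at 9.89 ± 0.020, but *Mki67* (6.66 ± 0.25), *Plk1* (6.61 ± 0.13) and *Ccna2* (6.56 ± 0.33) were only slightly above the upper line. *Top2a* (6.06 ± 0.14) lay between the lines and *Birc5* (5.18 ± 0.20) below them.

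Interferon-stimulated genes were mostly above background, with no interferon named in the treatment. Of 27 genes 23 lay above the lower line (85.2%, against 58.1% of all genes) and 19 above the upper one (against 46.8%). *Ifitm3*, an antiviral membrane protein, gave 11.61, 11.56, 11.75 and 11.62. *Ifit1*, which binds foreign RNA, gave 9.76, 9.77, 9.77 and 9.80. *Oasl2* gave 9.96, 10.03, 10.04 and 10.05. The 3 were tight in all cultures, with SDs under 0.1. The sensor *Ddx58*, encoding RIG-I, was at 10.04 ± 0.060, *Bst2* at 10.30 ± 0.093, *Stat2* at 10.09 ± 0.022 and *Irf9* at 8.97 ± 0.068. *Mx1* was the dimmest of the list at 4.46 ± 0.15, and *Isg15* (6.28 ± 0.23) and *Rsad2* (5.95 ± 0.27) lay between the lines. Together with *B2m*, the class I peptide transporter subunit *Tap1* (7.57 ± 0.092) was above the upper line.

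Immediate early genes, measured 48 h after the change of medium, lay above the lower line in all 21 cases and above the upper line in 15. The shares of all genes above these lines were 58.1% and 46.8%. *Klf6* gave 11.65, 11.69, 11.69 and 11.66. *Fosl2* (10.18 ± 0.048), *Ier3* (9.54 ± 0.039) and *Zfp36* (9.06 ± 0.11) followed, while *Fos* itself (5.82 ± 0.16) and *Nr4a3* (5.79 ± 0.19) lay between the lines. The median SD of the list was 0.113, against 0.0746 for all genes above the lower line. For genes from the upper line to a signal of 8, where the median signal of the list, 7.55, lay, it was 0.0905.

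Housekeeping and metabolic lists lay well above the lines. All 14 measured reference genes passed the upper line, from *Tfrc* (6.96 ± 0.094), the transferrin receptor, to *B2m*, and 20 of 21 genes of the chaperonin and the proteasome core did, the exception being *Psma5* (4.79 ± 0.078). All 18 cholesterol synthesis genes were above the upper line, with a median of 10.54 (percentile 95.8). *Hmgcs1*, an early enzyme of the mevalonate pathway, gave 11.86, 12.03, 11.95 and 11.95, and *Sqle*, squalene epoxidase, was at 11.14 ± 0.034. *Dhcr7* (9.01 ± 0.053) and *Sc5d* (11.66 ± 0.033), the last steps towards cholesterol, were also high. Cholesterol is required to modify hedgehog ligand and to activate Smoothened. All 19 genes of the unfolded protein response were above the upper line, led by the chaperones *Canx* (12.81 ± 0.022) and *Calr* (12.78 ± 0.022), and *Ddit3* (CHOP) was at 9.48 ± 0.021. All 15 glycolytic genes were above it, led by *Gapdh* (13.17 ± 0.021). *Gapdh*, against which the study normalised its RT-PCR, gave 13.18, 13.16, 13.19 and 13.14 in the 4 cultures. Of the genes with RT-PCR primers, 15 of 20 measured lay above the upper line, against 46.8% of all genes. *Foxd1*, *Frem1* (5.38 ± 0.10), *Gli1* and *Gm5127* (4.96 ± 0.29) were below the lower line. The others above the upper line, besides *Gapdh*, *Ptch1*, *Gas1*, *Grem1* and *Foxf2*, were the amino acid transporter *Slc38a4* (9.82 ± 0.074), *Stambpl1* (9.56 ± 0.086), the metalloprotease *Adamts9* (9.45 ± 0.014), the ephrin receptor *Epha3* (7.94 ± 0.085), *Id4* (7.94 ± 0.14), the amine oxidase *Aoc3* (7.84 ± 0.11), the endothelin *Edn1* (7.11 ± 0.13), the sialyltransferase *St6galnac2* (6.85 ± 0.14), *Gprc5a* (6.70 ± 0.15) and *Bnc1* (6.52 ± 0.059).

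Imprinted genes lay above the upper line in 17 of 24 cases, against 46.8% of all genes. Among the 17 were *Peg3* (11.54 ± 0.051), *Plagl1* (10.91 ± 0.054), *Grb10* (10.71 ± 0.044), *Igf2r* (10.29 ± 0.035) and *Igf2*. The paternally expressed *Dlk1* (6.10 ± 0.083) and the maternally expressed *Meg3* (5.96 ± 0.059) lay between the lines, while *Rian*, of the same cluster as *Meg3*, was at 9.46 ± 0.041. *Xist*, the RNA that coats the inactive X chromosome of female cells, gave 12.79, 12.78, 12.69 and 12.72. All 6 measured Y-linked genes were below the lower line, from *Usp9y* (3.14 ± 0.024) to *Sry* (5.25 ± 0.14).

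The share of genes above background differed between classes of RNA. Of 18961 protein-coding genes 62.6% lay above the lower line, against 27.4% of 1926 lncRNA genes and 31% of 478 miRNA genes. Of 80 snoRNA genes 60 (75%) lay above it. The brightest miRNA gene was *Mir5099*, with 13.42, 13.49, 13.48 and 13.49, and it was the only miRNA gene among the 30 genes with the highest mean. Its hairpin in RefSeq (chr12:36816205-36816278, plus strand, GRCm38.p6) is shown because it is the RNA by which the cluster is named.
*Mir5099*: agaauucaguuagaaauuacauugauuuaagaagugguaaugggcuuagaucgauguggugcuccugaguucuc

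Small RNA and mitotic genes spread more between cultures than other genes did. At a matched signal of 7 to 9, the median SD was 0.18 over 25 snoRNA genes, 0.129 over 49 miRNA genes and 0.071 over 5051 protein-coding genes. Averaged over the 60 above the lower line, culture 2 lay at -0.16 and culture 3 at 0.16 log2 units from the mean of the gene, with cultures 1 and 4 at -0.03 and 0.03. Culture 3 was the highest for 37 and culture 2 the lowest for 33 of the 60, against 29.2% and 23.8% of all genes above the line. *Snora75* gave 7.95, 7.16, 8.19 and 7.60. *Snord110* gave 7.30, 6.86, 7.86 and 7.64. Both were among the 10 genes with the largest SD.

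In mitotic genes the same cultures were most often extreme. Their median SD above the lower line was 0.164, against 0.0746 for all genes above it and 0.123 for genes between the lines, where the median signal of the list, 6.26, lay. Averaged over the 24 above the lower line, the 4 cultures deviated by 0.00, -0.09, 0.14 and -0.05, and culture 3 was the highest for 13 and culture 2 the lowest for 12 of them. *Ccna2* gave 6.60, 6.37, 7.0 and 6.26. *Mki67* gave 6.90, 6.46, 6.86 and 6.44. Culture 3 was the highest for *Ccna2* and culture 1 for *Mki67*. For genes of G1/S transition and DNA replication the deviations were smaller, with a range of 0.0748 between the cultures, and culture 3 was the highest for 7 of 31. Culture 2 was the lowest here too, for 14 of the 31, against 23.8% of all genes above the line. Ribosomal protein genes deviated by -0.03, -0.01, 0.04 and 0.01 and mitochondrially encoded genes by -0.04, 0.02, 0.04 and -0.02, with culture 3 highest and culture 1 lowest in the mean. By single genes, culture 4 was the lowest for 6 and culture 1 for 4 of the 10 mitochondrially encoded genes.

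**Figure D5:**
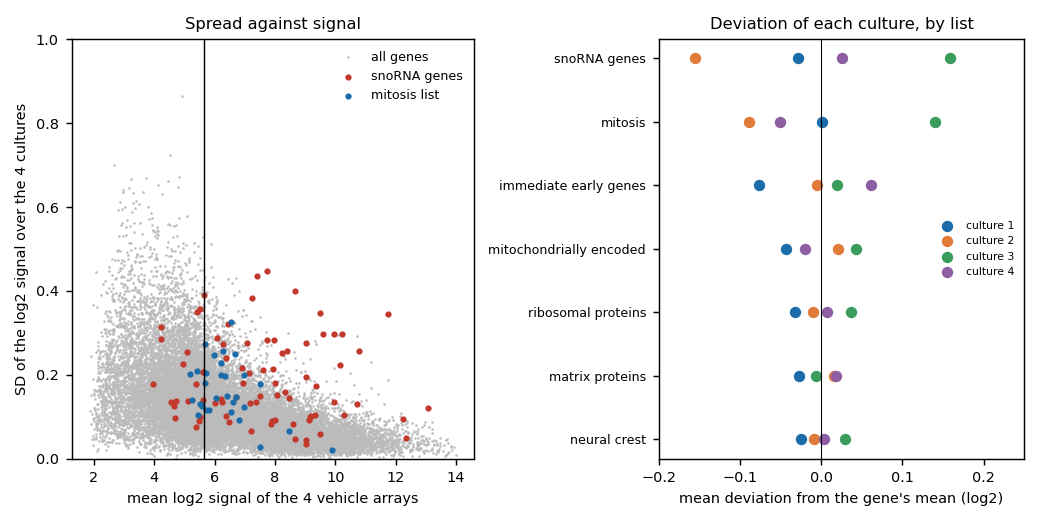
Left, the SD of the log2 signal over the 4 cultures against the mean signal for all genes (grey), snoRNA genes (red) and mitosis genes (blue), with the lower background line. Right, the mean deviation of each culture from the mean of the gene (log2) over the members of a list above the lower line; for snoRNA and mitosis genes culture 2 lies lowest and culture 3 highest.

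Only 4 genes above the lower line, *Gsdmcl2*, *A430010J10Rik*, *Mir1945* and *Snora75*, spanned more than 1 log2 unit between their highest and lowest culture, and 447 spanned more than 0.5. The 10 with the largest SD were *A430010J10Rik* (5.87 ± 0.51), *Gsdmcl2* (5.88 ± 0.46), *Snora75*, *Snord110*, *Olfr1494* (5.69 ± 0.43), *Mir1970* (5.94 ± 0.43), *Mir1945* (6.70 ± 0.43), *Gm38418* (6.43 ± 0.43), *Vmn1r175* (5.83 ± 0.42) and *Gm13271* (6.57 ± 0.42). Of these, 5 had a mean between the background lines, where the spread of all genes is wide. The tightest genes were *Laptm4b*, a lysosomal membrane protein, with 11.43, 11.43, 11.44 and 11.43, and *Clip4* with 8.13, 8.13, 8.12 and 8.13. *Eif4g2*, a translation initiation factor, gave 11.58, 11.58, 11.58 and 11.58. The 10 genes with the smallest SD had values between 0.0028 and 0.0048, and the others among them were *Tceal1*, *4930579K19Rik*, *Suco*, *Dnajc27*, *Rufy2*, *Mprip* and *Dnajc14*.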

How the data were processed

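RNA of 4 vehicle cultures was hybridised to Mouse Gene 2.0 ST arrays, 1 sample per chip. For each transcript cluster the authors deposited a log2 signal, and they named GCOS for the intensities, Expression Console for the signal files and Transcriptome Analysis Console 2.0 for their comparisons. The algorithm of summarization and the build of the genome are not given in the sources used here. Signals were taken as deposited. A gene was represented by its cluster with exactly 1 symbol and the highest mean, and genes were described by the mean and SD over the 4 cultures with no test, since there was 1 group. Arrays hold no read depth, and their number limits the precision. Symbols came from the platform annotation, and promoters and hairpins from RefSeq. Calculations used Python 3.11.15, numpy 2.4.6, pandas 2.3.3 and matplotlib 3.10.9, and the summaries were tested on simulated data.

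Named are the 30 genes with the highest mean, the members of the gene lists, the 10 genes with the largest and the 10 with the smallest SD above the lower background line, the genes of the study's RT-PCR primers, and any member of a count of 5 or fewer. The members and lists were chosen with earlier results of these data known. The study's perivascular and orofacial cleft lists supplied gene names, and their members were counted like those of the other lists. Alternatives were other background lines, median instead of mean, quantile normalization, centring, the mean over all clusters of a gene, percentiles among genes, and leaving out each culture. The SHH arrays were not used.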

Additional observations from a re-analysis of the deposited data

Results flagged for a closer look

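Of the 390 genes named in the report, 18 had 1 culture that stood apart from the other 3, by the gap to its nearest neighbour relative to the range of the 4 (Dixon's criterion). Chance alone marks about 1 in 20 such groups. The culture that stood apart was culture 1 for 5 genes, culture 2 for 5, culture 3 for 5 and culture 4 for 3. Each value is given as a log2 signal, beside the lowest and highest of the other 3 cultures. Culture 1 was the lowest for *Pax9* at 9.11 against 9.21 to 9.22, *Tgfbr2* at 8.63 against 8.81 to 8.83 and *Tnnt3* at 6.39 against 6.55 to 6.56. Culture 1 was the highest for *Ift88* at 8.217 against 8.168 to 8.171 and *Tpm1* at 10.65 against 10.58 to 10.59. Culture 2 was the lowest for *Nt5e* at 4.99 against 5.33 to 5.37. Culture 2 was the highest for *Col1a2* at 11.940 against 11.889 to 11.893, *Emcn* at 3.59 against 3.32 to 3.37, *Ier3* at 9.60 against 9.52 to 9.53 and *Sox5* at 6.60 against 6.45 to 6.46. Culture 3 was the lowest for *Zic2* at 5.25 against 5.39 to 5.41. Culture 3 was the highest for *Col6a1* at 10.70 against 10.55 to 10.57, *Csf1* at 10.999 against 10.891 to 10.908, *Igf2* at 8.53 against 8.32 to 8.35 and *Mir1970* at 6.58 against 5.64 to 5.80. Culture 4 was the lowest for *Dnajc27* at 7.426 against 7.434 to 7.435. Culture 4 was the highest for *Cdh3* at 9.19 against 9.11 to 9.12 and *Mmp2* at 12.38 against 12.33 to 12.34. The widest gap was that of *Mir1970*, whose mean lies between the background lines.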

How the results depend on the processing

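No paired analysis was possible because the results come from no test. Of the results that describe the arrays or a main list, 95 values under the alternatives stayed within the spread or within 1.5 times the count and 9 moved. Part of the 95 could not move. The lowest correlation between arrays (0.9893) and the difference in CpG ratio (0.6449) do not use the background line. The counts do not use the percentile scale. The median SD of genes above the lower line, 0.0746, was 0.0664 with the upper line and 0.0716 when a gene had to be above the line on each of the 4 arrays. Leaving out 1 culture in turn gave a median SD between 0.066 and 0.0717, and a lowest correlation between arrays of 0.9893 to 0.9901. The count of Hox genes above background went from 6 to 1 with the upper line and was between 5 and 8 without 1 culture. The difference in CpG ratio between the highest and the lowest decile of genes, 0.6449, was 0.6424 with the mean over all clusters of a gene. The cause of these shifts was not tested, except that a higher line leaves fewer, brighter genes.

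Among other results 264 values stayed and 9 moved. Part of the 264 could not move either, since the percentiles of genes do not use the background line and the counts do not use the percentile scale. With the upper line the counts were 23 for collagen chains, 2 for endothelium and 14 for mitosis, and with the vomeronasal receptor line 5 epithelial genes lay above background. Percentiles among genes were lower for *Gli1* (34.4 in place of 41.1), *Sox10* (43.9 in place of 50.6) and *Ptch1* (78.1 in place of 83.2). For *Acta2*, *Prrx1* and *Smo* they were slightly higher. Without 1 culture the number of genes above the lower line was between 12854 and 13038.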
